A study of Homo sapiens with 60 samples.

Results

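The comparison is between 3 libraries of HT29 cells given the high dose and 3 given the low dose of an ethanol extract of Aconiti Lateralis Radix Preparata, the processed lateral root of aconite. These 6 libraries were taken by their labels out of the 60 of the series analysed here, and 3 libraries at the medium dose were used to place the dose at which a gene moved. HT29 is an established human colorectal adenocarcinoma line. The cells were exposed for 24 h to 500 µg/mL (high), 100 µg/mL (medium) or 20 µg/mL (low) of an extract made with 70% ethanol, and control cells received DMSO as vehicle, given as 0.1% in the sample labels and as 2% in the design text. The only other extract of the same library set, the ethanol extract of Bupleuri Radix, was given at 310, 62 and 12.4 µg/mL in 3 libraries a dose, and its high and low doses span the same 25-fold range. The codes in the sample labels start with D1 for the 3 vehicle libraries and with 13 for both extracts, while every title names BatchD. The codes are read here as library sets, with vehicle in a set of its own, though no label says what they mean. On that reading, whether a gene differed from vehicle by extract or by set cannot be told apart. Nothing in the labels says that the libraries of a dose came from separate cultures, so the p-values measure the spread between these libraries, which may be technical.

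Aconite root is known for diterpenoid alkaloids such as aconitine, which hold voltage-gated sodium channels open, and processing of the root by heat breaks many of them down to less toxic forms. NRF2 targets, tubulins and very long genes are described first and other gene groups after them. NRF2 is a transcription factor that KEAP1 marks for degradation until oxidants or electrophiles modify KEAP1, whereupon NRF2 binds antioxidant response elements and raises genes of glutathione synthesis, quinone and carbonyl reduction, iron storage and NADPH supply. Alpha and beta tubulin form the dimers from which microtubules grow, and cells adjust the stability of tubulin mRNAs to the pool of free dimers. Very long genes consist mostly of intron, and each of their transcripts takes correspondingly long to make.

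The high-dose libraries held 21.6, 23.0 and 29.5 M counts, the low-dose libraries 21.3, 23.5 and 23.4 M, the medium-dose libraries 22.7 to 26.1 M and the vehicle libraries 23.3 to 36.7 M. Levels are counts scaled to the depth of each library (CPM). All 11 markers of colon epithelium had enough counts to be tested. Their means in the Aconiti libraries ran from 1.2 CPM (CDX1) to 5750 CPM (keratin 8, KRT8). Of 7 fibroblast and mesenchyme markers 2 were tested, of 8 blood and endothelial markers 3, and of 6 liver markers 2. In each of these lists 1 member was at 0, namely COL3A1, CD3E and APOA2. COL1A1, the highest of the fibroblast list, averaged 1.55 CPM. LYZ and SERPINA1, listed as markers of blood and liver cells, averaged 1850 and 342 CPM. Among the vehicle libraries replicate 1 stood apart, with 7.11% of its counts in cytosolic ribosomal protein genes against 6.01% and 5.71% in the others.

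Between high and low dose 760 of 15490 tested genes passed an adjusted p of 0.05 in edgeR's quasi-likelihood test, which is 4.91% of them. Of these, 166 were higher at the high dose and 594 lower, and 7 rises and 9 falls were at least 2-fold. Most of the changes were therefore small, with a median size of 0.26 on the log2 scale among the rises and 0.28 among the falls, and the median over all tested genes was 0.01. The largest rises of genes with a mean log2 CPM of at least 1 were in AKR1C2, TUBA1A, AKR1C1, HMOX1, TUBB3, AKR1C3 and TUBA4A, all of them NRF2 targets or tubulins. At the same limit on level, the largest falls were in SHANK2, NAALADL2, LPP and THSD4, each spanning over 500 kb. The number of calls rested in part on single libraries. It was 423 without high-dose replicate 1, 436 without high-dose replicate 3, 506 without low-dose replicate 1 and 1199 without vehicle replicate 1.

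**Figure D1:**
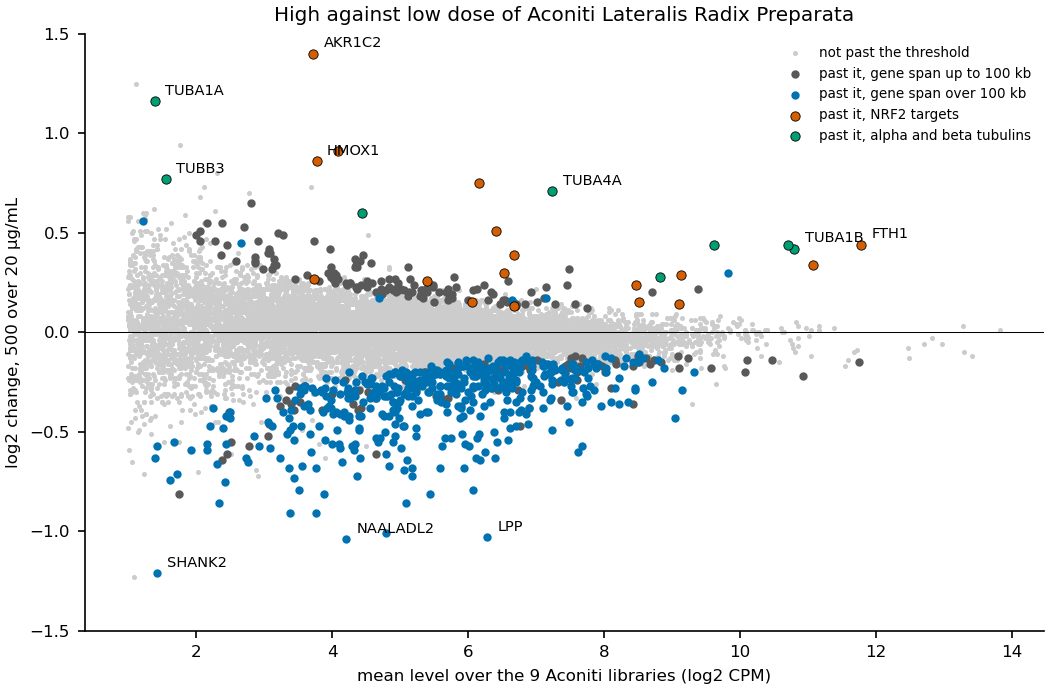
Log2 change between 500 and 20 µg/mL of the Aconiti extract (vertical) against the mean level over the 9 Aconiti libraries (horizontal, log2 CPM), 1 point a gene, for genes with a mean log2 CPM of at least 1. Light grey points did not pass an adjusted p of 0.05, and all others did: NRF2 targets and tubulins lie above 0, while genes spanning over 100 kb make up most of the points below 0.

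Most of the change came between the medium and the high dose. Between high and medium dose 476 genes passed, 116 higher and 360 lower at the high dose, which is 3.07% of the genes tested. Between medium and low dose 3 genes passed, 0.0194% of those tested, and all were tubulins that rose: TUBA1B, TUBB4B and TUBB. In the other direction 0 passed in edgeR or DESeq2, with 278 genes lower at the medium dose at an unadjusted p below 0.05 in edgeR. Of the 166 genes that were higher at the high dose, 140 had a fitted medium-dose level between those of the other doses, and of the 594 lower genes 539 did. The median share of the change already reached at the medium dose was 24.3% among the rises and 22.1% among the falls.

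Genes known as NRF2 targets were higher at the high dose. Of 22 such genes, all of them tested, 18 rose and 0 fell, against 1.07% of all tested genes that rose and 3.83% that fell. DESeq2 called 17 higher and 0 lower, and 0 were lower at an unadjusted p below 0.05 in edgeR. The median log2 change of the 22 genes was 0.28, all 22 estimates were above 0, and in 19 genes every high-dose library lay above every low-dose library, against 11.4% of all tested genes. Members outside the rule for named genes are given as well.

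The aldo-keto reductases, which reduce carbonyls and steroids with NADPH, held the largest rise. AKR1C2 (chr10:4987400-5018031, minus strand, GRCh38) had 22.7, 23.2 and 24.2 CPM at the high dose, against 9.88, 8.65 and 8.09 CPM at the low dose. The groups were far apart, a 2.64-fold difference (log2 change 1.40 ± 0.07 SE, adjusted p = 5.1e-13, edgeR), and the medium dose averaged 10.8 CPM. In vehicle AKR1C2 averaged 11.6 CPM. The high dose was 2.03-fold above vehicle and the low dose lay below it (adjusted p = 1.3e-10 and 0.00075, edgeR). AKR1C1 (chr10:4963253-4983283, plus strand), its neighbour, had 25.1, 24.4 and 27.1 CPM at the high dose, against 12.5, 13.7 and 14.7 CPM at the low dose (log2 change 0.91 ± 0.07, adjusted p = 2e-09, edgeR). AKR1C1 at the medium dose, with a mean of 14.0 CPM, was close to its low-dose mean of 13.6 CPM, so that nearly all of its rise lay between 100 and 500 µg/mL. AKR1C3 (chr10:5035354-5107686, plus strand), from the same cluster, averaged 99.4 ± 6.8 CPM at the high dose and 59.0 ± 5.7 CPM at the low dose (SD, n = 3 each; log2 change 0.75). AKR1B10, on chromosome 7, averaged 121 ± 3.6 CPM at the high dose and 92.0 ± 6.2 CPM at the low dose, a smaller change of 0.39. AKR1C1 and AKR1C2 are close in sequence and reads can be shared between them, so the split of their counts is uncertain.

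The promoters of the AKR1C pair, of GCLM and of TXNRD1 are shown because they set the largest rise of the list beside a moderate and a small one. They run from 250 bases before to 50 after the start of the gene (RefSeq, GRCh38.p14, written 5′ to 3′ on the gene's strand), and capitals mark matches to TGACNNNGC, the core of the antioxidant response element, searched on both strands, where the other strand reads GCNNNGTCA. AKR1C2 lies at chr10:5003808-5004107 (minus strand, where RefSeq starts the gene inside the longer GENCODE interval given above), AKR1C1 at chr10:4963165-4963464 (plus), GCLM at chr1:93909381-93909680 (minus) and TXNRD1 at chr12:104215529-104215828 (plus).
AKR1C2: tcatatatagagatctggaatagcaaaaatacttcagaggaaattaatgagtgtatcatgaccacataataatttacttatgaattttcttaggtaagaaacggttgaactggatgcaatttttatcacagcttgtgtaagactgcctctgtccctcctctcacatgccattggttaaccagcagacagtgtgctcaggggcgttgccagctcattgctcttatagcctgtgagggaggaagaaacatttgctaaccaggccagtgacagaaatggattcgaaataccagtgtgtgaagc
AKR1C1: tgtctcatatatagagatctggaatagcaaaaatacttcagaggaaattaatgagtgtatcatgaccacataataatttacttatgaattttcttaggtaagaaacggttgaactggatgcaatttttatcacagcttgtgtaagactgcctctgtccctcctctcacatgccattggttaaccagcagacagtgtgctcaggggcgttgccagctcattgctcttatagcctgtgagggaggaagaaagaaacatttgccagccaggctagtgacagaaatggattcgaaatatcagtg
GCLM: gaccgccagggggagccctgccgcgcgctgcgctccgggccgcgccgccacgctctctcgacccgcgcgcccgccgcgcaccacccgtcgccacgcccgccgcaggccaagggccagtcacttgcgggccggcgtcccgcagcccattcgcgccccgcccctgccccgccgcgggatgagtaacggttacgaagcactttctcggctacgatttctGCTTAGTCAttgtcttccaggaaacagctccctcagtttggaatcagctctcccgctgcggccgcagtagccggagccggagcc
TXNRD1: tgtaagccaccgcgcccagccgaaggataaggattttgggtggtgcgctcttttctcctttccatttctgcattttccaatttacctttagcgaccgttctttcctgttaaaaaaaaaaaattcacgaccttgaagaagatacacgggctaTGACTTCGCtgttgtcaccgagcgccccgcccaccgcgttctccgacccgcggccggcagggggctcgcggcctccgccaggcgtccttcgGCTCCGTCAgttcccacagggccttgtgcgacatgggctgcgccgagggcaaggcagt
The AKR1C2 and AKR1C1 windows share an identical run of 245 of their 300 bases, and neither holds the core. Sequence outside the 300 bases was not searched, so a core further from the start would not have been found for any gene. GCLM holds 1 match and TXNRD1 holds 2, of which the second in TXNRD1 begins 8 bases before the start of the gene and runs into its first base. Among the 16 NRF2 targets with a promoter in the table, 4 held the core (25%), namely GCLM, TXNRD1, ME1 and PGD, against 15.3% of the 10825 promoters of tested genes and 13.6% of all 27305 promoters in the table. Of these 4 genes GCLM rose by 0.51 on the log2 scale, TXNRD1 by 0.15 and ME1 by 0.13, while PGD, with a log2 change of 0.04, did not pass the test.

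Genes of heme breakdown and iron storage rose as well. HMOX1 (chr22:35380361-35394214, plus strand), the heme oxygenase that opens the heme ring, had 17.9, 19.6 and 19.9 CPM at the high dose, against 9.78, 9.80 and 12.0 CPM at the low dose. No high-dose library overlapped a low-dose one (log2 change 0.86 ± 0.09, adjusted p = 1.6e-07, edgeR), and HMOX1 averaged 12.5 CPM at the medium dose and 8.82 CPM in vehicle. The ferritin subunits, which store the released iron, rose less. FTH1 averaged 4200 ± 380 CPM at the high dose and 3090 ± 250 CPM at the low dose, and FTL averaged 2490 ± 110 CPM at the high dose and 1970 ± 140 CPM at the low dose (log2 changes 0.44 and 0.34, adjusted p = 0.013 and 0.012, edgeR). In vehicle FTH1 averaged 4640 CPM and FTL 2610 CPM, so for both ferritins the high dose did not pass the test against vehicle (adjusted p = 0.28 and 0.53, edgeR) and it was the low dose that lay below vehicle (adjusted p = 0.00057 and 0.00096). Ferritin genes have many processed copies in the genome, which can share reads. SLC48A1, a heme transporter, rose by 0.26, and OSGIN1, an oxidative-stress-induced growth inhibitor, by 0.27.

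Glutathione synthesis rose by smaller steps and with little spread. GCLM, the modifier subunit of glutamate-cysteine ligase (chr1:93885205-93909456, minus strand), had 101, 102 and 103 CPM at the high dose, against 70.1, 75.7 and 69.3 CPM at the low dose. The high-dose libraries were almost equal and lay above all others (log2 change 0.51 ± 0.05, adjusted p = 3.3e-08, edgeR), with 83.2 CPM on average at the medium dose. GCLC, the catalytic subunit, had 101, 106 and 104 CPM at the high dose, against 83.8, 85.3 and 83.3 CPM at the low dose (log2 change 0.30). SLC7A11, which imports the cystine that glutathione needs, averaged 176 ± 9.7 CPM at the high dose and 161 ± 3.8 CPM at the low dose, and did not pass (log2 change 0.12 ± 0.05, adjusted p = 0.24, edgeR). ABCC2, an efflux pump for glutathione conjugates, had 2.17, 2.05 and 1.65 CPM at the high dose, against 1.34, 0.721 and 1.02 CPM at the low dose (log2 change 0.92 ± 0.23, adjusted p = 0.016, edgeR), a rise at a low level. ABCC3, a related pump, averaged 518 CPM at the high dose and 502 CPM at the low dose and did not pass.

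Of the quinone, thioredoxin and NADPH genes, NQO1, which reduces quinones, had 632, 637 and 648 CPM at the high dose, against 513, 531 and 520 CPM at the low dose. Its groups did not overlap (log2 change 0.29 ± 0.04, adjusted p = 3.9e-06, edgeR). SRXN1 (sulfiredoxin), TXNRD1 (thioredoxin reductase), TKT (transketolase) and ME1 (malic enzyme) rose by only 0.13 to 0.15. PGD and TALDO1, of the pentose phosphate pathway, had log2 changes of 0.04 and 0.02 and did not pass. Of the 18 risen members 11 also passed between high and medium dose. Between medium and low dose 0 of the 22 passed in edgeR or in DESeq2. At an unadjusted p below 0.05 in edgeR 6 were higher, against 336 of all 15490 tested genes.

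**Figure D2:**
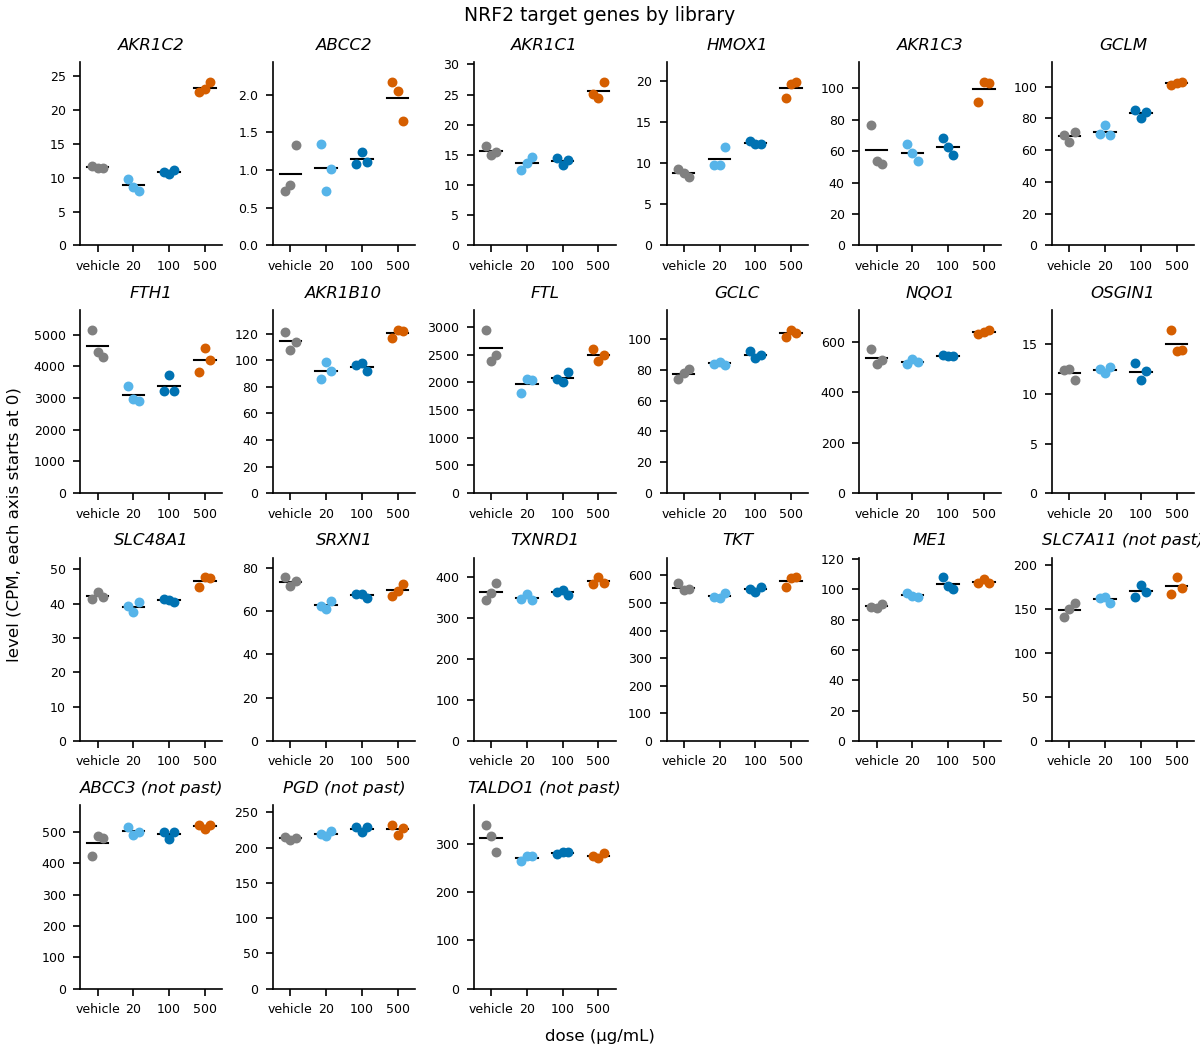
Level (CPM, vertical, each axis from 0) of NRF2 targets in each library of vehicle and of 20, 100 and 500 µg/mL of the Aconiti extract (horizontal), with a bar at the mean of each group of 3 libraries. Genes run from the largest to the smallest change, from AKR1C2, with 22.7 to 24.2 CPM at 500 µg/mL, to TALDO1, and the last 4 did not pass the test between high and low dose.

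Set beside Bupleuri Radix, the rise of the NRF2 targets was smaller for most members. The median log2 change between high and low dose of Bupleuri Radix was 0.86, with 20 of the 22 genes higher, where 11% of all tested genes were higher and 9.72% lower. The difference between the Aconiti and the Bupleuri dose change passed the test for 2316 genes, 15% of those tested, with 8.48% smaller (more negative) for Aconiti. It was smaller for Aconiti in 16 of the 22 NRF2 targets and larger in 0. AKR1B10 changed by 0.39 with Aconiti and by 1.57 with Bupleuri Radix (difference -1.18, adjusted p = 3.2e-12, edgeR), and SLC7A11 by 0.12 and 1.20 (difference -1.08). AKR1C2 was closer, with 1.40 for Aconiti and 1.81 for Bupleuri Radix (difference -0.41 ± 0.10, adjusted p = 0.0071, edgeR). The doses of the extracts differ in µg/mL, so these differences hold for the doses given and not for equal amounts.

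Alpha and beta tubulin genes formed the other group of rises. The list of 20 genes was drawn up after the rises of its members had been seen, so its count describes and does not test the group. Of the 12 members that passed the filter on low counts 9 rose and 0 fell, where 1.07% of all tested genes rose and 3.83% fell. Their median log2 change was 0.44, and the 8 members below the filter are left out of these counts. DESeq2 called 7 higher and 0 lower, and 0 were lower at an unadjusted p below 0.05 in edgeR. In 9 of the 12 tested members every high-dose library lay above every low-dose library, against 11.4% of all tested genes. Since the alpha genes TUBA1A, TUBA1B and TUBA1C on chromosome 12 and the beta genes TUBB2A and TUBB2B on chromosome 6 are nearly identical pairs or triples with many pseudogenes, the split of reads among them is uncertain. TUBA1A also overlaps TUBA1C, which lies on the other strand, in the annotation.

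The largest relative rises were in isotypes known best from neurons. TUBA1A (chr12:49184796-49189324, minus strand), the main alpha tubulin of developing neurons, had 4.25, 4.32 and 4.49 CPM at the high dose, against 2.27, 1.99 and 1.58 CPM at the low dose. It was 2.24-fold higher (log2 change 1.16 ± 0.15, adjusted p = 6.1e-06, edgeR), and its medium-dose mean of 1.91 CPM was close to the low-dose mean of 1.95 CPM. TUBB2B had 1.76, 1.92 and 2.24 CPM at the high dose, against 0.788, 1.40 and 0.724 CPM at the low dose (log2 change 1.03 ± 0.25, adjusted p = 0.012, edgeR). TUBB3, a beta tubulin used as a neuronal marker, had 4.02, 3.59 and 4.32 CPM at the high dose, against 2.41, 1.95 and 2.68 CPM at the low dose (log2 change 0.77 ± 0.17). These 3 genes had few reads at every dose, and their errors were wider than those of the other 6 tubulins that rose.

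The tubulins with many reads rose less in relative terms but with little spread. TUBA4A had 190, 198 and 201 CPM at the high dose, against 113, 122 and 125 CPM at the low dose (log2 change 0.71 ± 0.05, adjusted p = 5.9e-10, edgeR). TUBA1B (chr12:49127782-49131397, minus strand), the common alpha tubulin of dividing cells, had 2080, 2020 and 2080 CPM at the high dose, against 1470, 1550 and 1580 CPM at the low dose. TUBB (chr6:30720201-30725426, plus strand) had 1920, 1960 and 1990 CPM at the high dose, against 1430, 1430 and 1480 CPM at the low dose. For both genes every high-dose library lay far above every low-dose library (log2 changes 0.42 ± 0.04 and 0.44 ± 0.03, adjusted p = 2e-08 and 2e-09, edgeR). TUBB4B (chr9:137241213-137243707, plus strand) averaged 915 ± 25 CPM at the high dose and 676 ± 12 CPM at the low dose, and TUBB2A averaged 27.4 ± 0.36 CPM at the high dose and 18.1 ± 1.4 CPM at the low dose. TUBA1C rose by 0.28, the smallest change among those past the threshold. TUBB6, TUBA8 and TUBB1, all at low levels, had log2 changes of 0.18, -0.09 and -0.16 with errors of 0.20 to 0.47, and did not pass.

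The dose course differed within the list. TUBA1B, TUBB and TUBB4B had risen by 0.23, 0.21 and 0.22 at the medium dose against the low dose (adjusted p = 0.015, 0.015 and 0.019, edgeR), and by 0.20, 0.23 and 0.22 more between medium and high dose. TUBA4A followed the same course, with 0.27 between medium and low dose (adjusted p = 0.051, edgeR) and 0.44 between high and medium dose. In TUBA1A the fitted change between medium and low dose was -0.02 and that between high and medium dose 1.18. The median share of the change reached at the medium dose was 37.9% over the 9 risen tubulins. Of the 3 calls between medium and low dose, 0 were left when any 1 of the low-dose libraries, or medium-dose replicate 2 or 3, was left out.

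**Figure D3:**
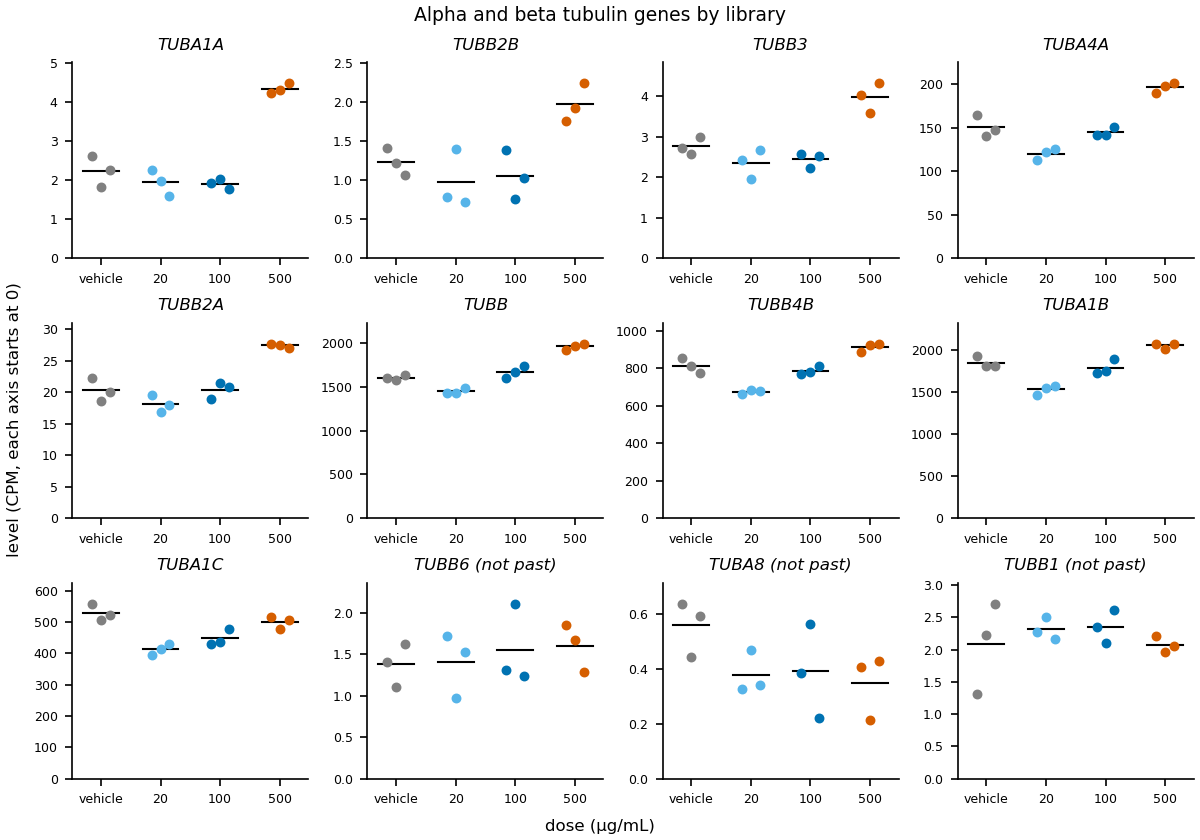
Level (CPM, vertical, each axis from 0) of the 12 tested alpha and beta tubulin genes in each library of vehicle and of 20, 100 and 500 µg/mL of the Aconiti extract (horizontal), with a bar at the mean of each group of 3 libraries. In the 9 genes from TUBA1A to TUBA1C the libraries at 500 µg/mL lie above all those at 20 µg/mL, and the last 3 did not pass the test between high and low dose.

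Vehicle levels lay between those of the doses for most tubulins. Against vehicle the median log2 change of the 12 genes was 0.25 at the high dose and -0.25 at the low dose. TUBA1B averaged 1850 CPM in vehicle, TUBB 1600 CPM and TUBB4B 815 CPM, and each passed the test against vehicle upward at the high dose (adjusted p = 0.003, 6.5e-07 and 0.0016, edgeR) and downward at the low dose (2e-05, 0.0026 and 2.3e-05). Of all tested genes 30.3% passed between high dose and vehicle (13.4% higher and 17% lower) and 27.9% between low dose and vehicle, and the library sets differ as well.

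The rise of the tubulins was larger with Aconiti than with Bupleuri Radix for 6 of the 12 genes (TUBA1A, TUBA4A, TUBB2A, TUBB, TUBB4B and TUBA1B) and smaller for 0, where 6.48% of all tested genes had a larger (more positive) change with Aconiti. TUBA4A changed by 0.71 with Aconiti and by 0.14 with Bupleuri Radix (difference 0.56, adjusted p = 2.5e-06, edgeR), and TUBB by 0.44 and 0.07 (difference 0.37, adjusted p = 3.6e-06, edgeR). The median change of the list with Bupleuri Radix was 0.12, with 2 of the 12 genes higher, where 11% of all tested genes were higher. Other genes of the microtubule system did not move with the dimer genes. Of 9 genes for gamma, delta and epsilon tubulin and the gamma-tubulin complex, which starts new microtubules, 1 rose, TUBGCP5, by 0.22 (adjusted p = 0.046, edgeR), a call lost under 14 of 29 alternatives, among them leaving out any 1 high-dose or low-dose library. Of 20 tested genes for tubulin folding and microtubule-associated proteins 1 rose (5%) and 4 fell (20%), against 1.07% and 3.83% of all tested genes. The rise was in CLIP4, of the family of proteins that track growing microtubule ends, with 8.59 ± 0.59 CPM at the high dose and 5.47 ± 0.22 CPM at the low dose (log2 change 0.65). The falls were in MAP4, CLASP1, MAP7 and TBCD, with log2 changes of -0.29, -0.28, -0.20 and -0.17, and these 4 genes span 194 to 312 kb.

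Long genes made up most of the falls. The 594 falls had a median gene span of 226 kb, the 166 rises one of 20.0 kb and all tested genes one of 25.1 kb. Of the falls 82.5% spanned over 100 kb, of the rises 5.42% and of all tested genes 15.9%. The share of genes that fell was 0.543% at spans up to 10 kb, 1.27% at 30 to 100 kb, 9.54% at 100 to 200 kb, 31.2% at 200 to 300 kb and 46.5% at 300 to 500 kb. The median log2 change moved with it, with 0.03, 0.00, -0.08, -0.18 and -0.29 in these classes. Spans are those of the longest extent of a gene in GENCODE 29, and the classes were drawn up with these results known.

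Of 133 tested genes spanning over 500 kb, 62 fell (46.6%) and 0 rose, with a median log2 change of -0.46, and in 77 every high-dose library lay below every low-dose library, against 13.2% of all tested genes. DESeq2 called 57 lower and 0 higher. At an unadjusted p below 0.05 in edgeR 1 was higher, against 1054 of all 15490 tested genes. The annotation holds 382 such genes, most of which were below the filter on low counts. Level bore on how many passed. Of the 61 with a mean log2 CPM of at least 3, 45 fell, of the 25 at 1 to 3, 13 fell, and of the 47 below 1, 4 fell. The medians in these classes were -0.54, -0.52 and -0.26. Among genes over 200 kb the median log2 change was -0.19 to -0.23 in every quartile of exon GC content and -0.16 to -0.23 in every quartile of spliced length.

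The genes with the largest falls at a mean log2 CPM of at least 1 are known for varied roles. SHANK2 (chr11:70467856-71252577, minus strand), a scaffold of synapses and epithelia spanning 785 kb, had 2.21, 1.45 and 1.25 CPM at the high dose, against 3.52, 3.82 and 3.87 CPM at the low dose (log2 change -1.21 ± 0.21, adjusted p = 0.0003, edgeR). NAALADL2 (chr3:174438573-175810552, plus strand), spanning 1372 kb, had 11.4, 13.0 and 11.9 CPM at the high dose, against 26.2, 23.5 and 25.1 CPM at the low dose (log2 change -1.04 ± 0.09, adjusted p = 1.5e-08, edgeR). LPP (chr3:188153284-188890671, plus strand), an adaptor at focal adhesions spanning 737 kb, had 45.9, 60.8 and 46.6 CPM at the high dose, against 111, 102 and 99.1 CPM at the low dose (log2 change -1.03 ± 0.10, adjusted p = 9.6e-06, edgeR). In all 3 genes the groups were well apart, and in LPP high-dose replicate 2 lay above the other high-dose libraries. THSD4, a matrix protein gene of 686 kb, had 15.2, 22.0 and 17.9 CPM at the high dose, against 36.0, 37.7 and 37.2 CPM at the low dose. It too was highest in replicate 2 among the high-dose libraries.

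The other falls among the 12 largest at this limit on level were between -0.91 and -0.79 on the log2 scale. They included SNX29 (a sorting nexin, 598 kb), VPS13B (a lipid transfer protein of the Golgi, 864 kb), DPYD (which breaks down pyrimidines, 917 kb), DIAPH2 (a formin, 920 kb), CDKAL1 (which modifies transfer RNA, 698 kb) and AGAP1 (a GTPase-activating protein, 638 kb). DIAPH2 averaged 30.7 ± 3.9 CPM at the high dose and 53.9 ± 2.3 CPM at the low dose, and CDKAL1 averaged 10.4 ± 1.1 CPM at the high dose and 18.2 ± 0.54 CPM at the low dose. Below the limit, GRIP1 (722 kb), PARD3B (1074 kb) and FOXP2 (607 kb), chosen after their values were seen, fell further, with log2 changes of -1.71, -1.28 and -0.96 (adjusted p = 0.0038, 0.0008 and 0.036, edgeR). Their means were 0.206, 0.699 and 0.523 CPM at the high dose, against 0.701, 1.70 and 1.04 CPM at the low dose.

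Great length alone did not go with a fall in every gene. Of the 61 long genes with a mean log2 CPM of at least 3, 16 did not pass. Chosen after their values were seen, RUNX1 (1217 kb), AUTS2 (1195 kb), CAMTA1 (984 kb) and FOXP1 (631 kb) had log2 changes of -0.11, 0.00, -0.05 and -0.06. Among others of the 16, DLEU1, EGLN3 and KALRN had log2 changes of 0.02, 0.08 and -0.08.

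**Figure D4:**
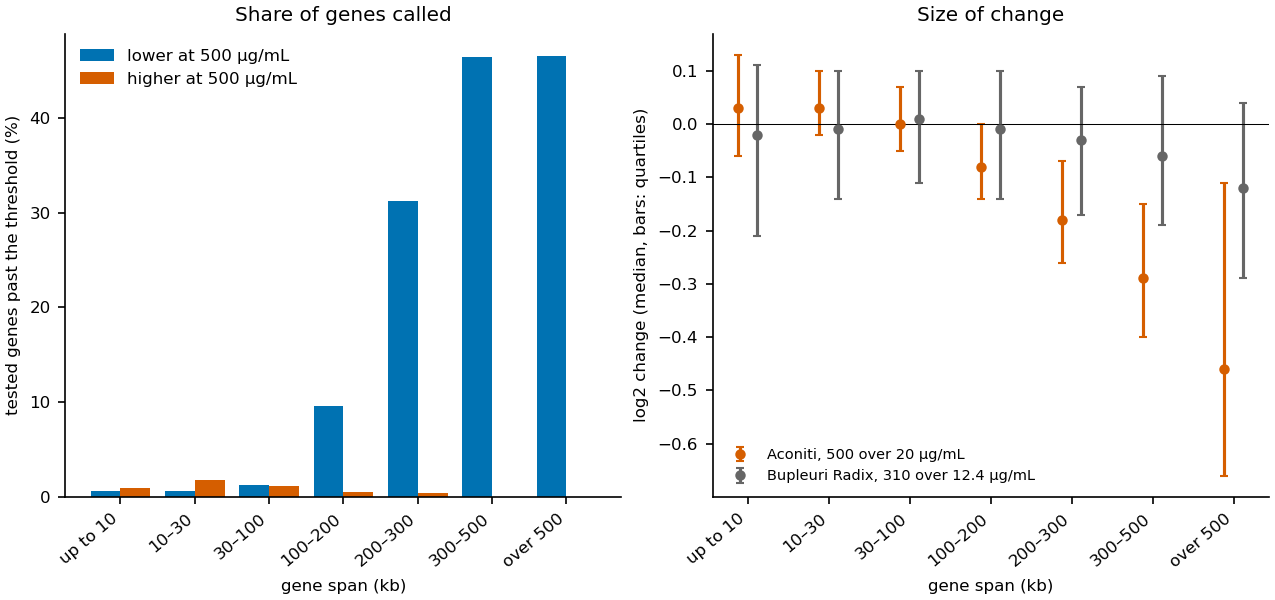
Left, percent of tested genes that were lower (blue) or higher (orange) at 500 than at 20 µg/mL by class of gene span (kb), with 0.543% lower at spans up to 10 kb and 46.6% lower over 500 kb. Right, median log2 change between high and low dose in the same classes for Aconiti (orange) and for Bupleuri Radix (grey), with bars from the lower to the upper quartile of genes, reaching -0.46 for Aconiti and -0.12 for Bupleuri Radix over 500 kb.

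The falls of long genes lay mostly above the medium dose. Of the 62 that fell, 52 also passed between high and medium dose. Between medium and low dose 0 of the 133 passed in edgeR or DESeq2. At an unadjusted p below 0.05 in edgeR 17 were lower and 3 higher, against 278 and 336 of all 15490 genes. The median share of the change reached at the medium dose was 18.7% over the 62 that fell. Genes over 500 kb took 0.213%, 0.237% and 0.216% of all counts at the high dose, against 0.307%, 0.301% and 0.300% at the low dose. The groups did not overlap, and the exact two-sided permutation test gave p = 0.1, the smallest that 3 libraries against 3 allow. The share was 0.275%, 0.298% and 0.277% at the medium dose and 0.240% to 0.287% in vehicle. Against vehicle the median log2 change of the 133 genes was -0.34 at the high dose and 0.11 at the low dose. High-dose replicate 2 fell less than the others, with a median of -0.17 from the mean of the 9 Aconiti libraries, against -0.34 and -0.29 in replicates 1 and 3.

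The difference from Bupleuri Radix was tested gene by gene. With Bupleuri Radix the 133 genes had a median log2 change of -0.12, with 25 lower and 4 higher. Of all tested genes 9.72% were lower and 11% higher with Bupleuri Radix. The change was more negative with Aconiti in 50 of the 133 genes and more positive in 1, against 8.48% and 6.48% of all tested genes. LPP changed by -1.03 with Aconiti and by -0.06 with Bupleuri Radix (difference -0.97, adjusted p = 0.00022, edgeR), and DIAPH2 by -0.81 and 0.03 (difference -0.84, adjusted p = 1e-06, edgeR). For NAALADL2, with -1.04 and -0.77, and for SHANK2, with -1.21 and -0.75, the difference did not pass (adjusted p = 0.15 and 0.31, edgeR).

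**Figure D5:**
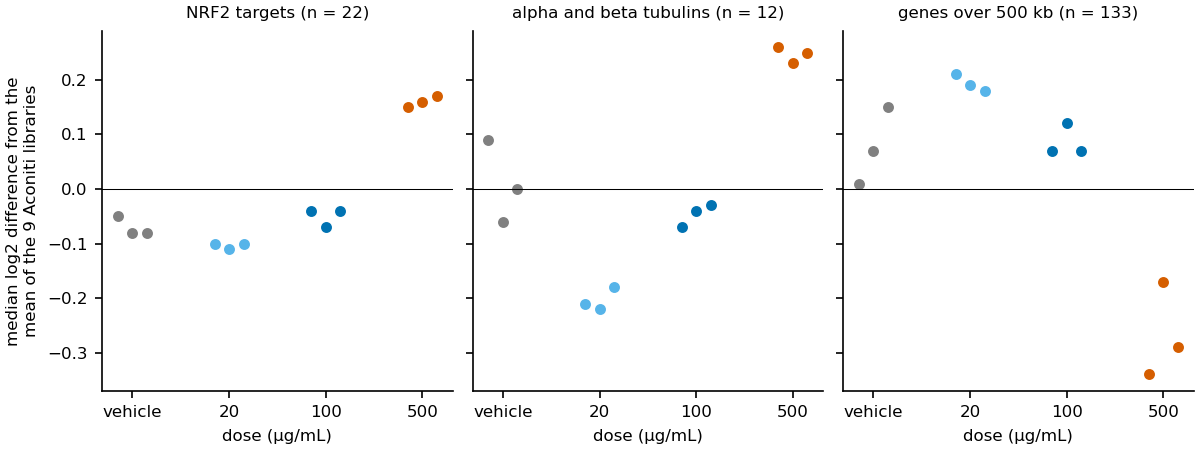
Median log2 difference of each list's genes from their mean over the 9 Aconiti libraries (vertical) in each library of vehicle and of 20, 100 and 500 µg/mL (horizontal), 1 point a library. The libraries at 500 µg/mL lie at 0.15 to 0.17 for 22 NRF2 targets, 0.23 to 0.26 for 12 tubulins and -0.34 to -0.17 for 133 genes over 500 kb.

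Most genes of fatty acid synthesis and a minority of those of cholesterol synthesis fell. Of 8 tested genes of fatty acid synthesis 6 fell and 0 rose, against 3.83% and 1.07% of all tested genes, with a median log2 change of -0.21 and all 8 estimates below 0. ACACA, the acetyl-CoA carboxylase that commits carbon to fatty acids, averaged 441 ± 29 CPM at the high dose and 593 ± 12 CPM at the low dose (log2 change -0.43 ± 0.08, adjusted p = 0.0013, edgeR), and it spans 322 kb. ACSS2, which makes acetyl-CoA from acetate and spans 55.8 kb, averaged 22.2 ± 0.97 CPM at the high dose and 27.9 ± 0.48 CPM at the low dose (log2 change -0.33). ELOVL6, SCD, FASN and ACLY changed by -0.23, -0.22, -0.20 and -0.13, and except for ELOVL6, of 153 kb, these are genes under 100 kb. The regulator SREBF1 had a log2 change of -0.11 and did not pass. Against vehicle the median change of the 8 genes was -0.08 at the high dose and 0.16 at the low dose. For ACSS2 and SCD the high dose did not pass against vehicle (adjusted p = 0.44 and 0.18, edgeR), and it was the low dose that lay above vehicle (adjusted p = 0.011 and 5.1e-05). Of 24 genes of cholesterol synthesis and uptake 5 fell and 19 did not pass. The falls included FDFT1, LSS and DHCR7, by 0.14 to 0.20, and the list had a median of -0.12. Of its 24 estimates 21 were below 0, against 7323 of all 15490 tested genes. FDFT1, the squalene synthase, averaged 179 ± 3.5 CPM at the high dose and 206 ± 7.8 CPM at the low dose.

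Several epithelial and signalling genes fell by small amounts, in lists of which few members passed and against 3.83% of all tested genes that fell. CLDN2, the pore-forming claudin of leaky epithelia, averaged 89.5 ± 3.6 CPM at the high dose and 124 ± 5.1 CPM at the low dose (log2 change -0.47 ± 0.05, adjusted p = 6.8e-08, edgeR). TJP1, a scaffold of tight junctions of 269 kb, changed by -0.16, and 3 of 16 tight junction genes (18.8%) fell in all. REG4 and AGR2, secreted or secretory-pathway proteins of goblet cells, were the 2 falls among 14 goblet and secretory genes (14.3%), with -0.36 and -0.17. LGR5, the marker of intestinal stem cells, and CD44 were the 2 falls among 13 WNT target and stem cell genes (15.4%), with -0.28 and -0.12. In the list of 11 colon epithelial markers 1 gene fell, CDH1 (E-cadherin), by 0.15. CDH1, TJP1, AGR2 and CD44 had adjusted p-values of 0.036 to 0.048 in edgeR and lost the call under 13, 10, 9 and 8 of 29 alternatives, each of them without high-dose replicate 1 or 3 and without low-dose replicate 2 or 3. Of 19 interferon response genes 3 (15.8%) fell, OASL, OAS2 and IFI44, with -0.61, -0.57 and -0.46 at levels under 10 CPM, and 0 rose. FGF19, which signals bile acid status to the liver, averaged 44.6 ± 4.6 CPM at the high dose and 56.3 ± 1.2 CPM at the low dose (log2 change -0.33). For LGR5, CD44, TJP1, OAS2 and IFI44 the high dose did not pass against vehicle (adjusted p = 0.36, 0.80, 0.75, 0.71 and 0.90, edgeR), and the low dose lay above vehicle (adjusted p = 0.0002, 0.021, 0.005, 0.011 and 0.0075). CLDN2, REG4, AGR2, OASL and FGF19 passed downward at the high dose against vehicle.

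Genes that respond to ion and cyclic nucleotide signals were examined because of the known targets of aconite alkaloids. The falls in the lists below are read against 3.83% of all tested genes that fell. In lists this short 1 call alone already exceeds that share. Of 20 sodium channel, pump and exchanger genes 8 passed the filter on low counts, and 1 fell, ATP1B1, the beta subunit of the sodium pump, with 320 ± 2.0 CPM at the high dose and 360 ± 9.6 CPM at the low dose (log2 change -0.17). The only voltage-gated sodium channel gene among the 8 was SCN8A, whose log2 change of 0.10 did not pass. Of 11 calcium and cAMP response genes 2 fell. PDE4D, a phosphodiesterase gene of 1553 kb, changed by -0.59, and RGS2, which curbs signalling by G proteins and spans 3.25 kb, by -0.39 (adjusted p = 2e-05 and 0.00035, edgeR). Of 21 genes of MAPK feedback and immediate early response 3 fell, EREG, DUSP6 and SPRED2, by 0.16 to 0.20, and DUSP6 and SPRED2 lost the call under 6 and 8 of 29 alternatives.

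Further rises were scattered, in lists that are read against 1.07% of all tested genes that rose and 3.83% that fell. Of 8 aryl hydrocarbon receptor targets 3 rose, ALDH3A1, NQO1 and UGT1A6, with 0.39, 0.29 and 0.28, and 0 fell, while AHR itself changed by 0.02. For ALDH3A1 the high dose did not pass against vehicle (adjusted p = 0.16, edgeR), and the low dose lay below vehicle (adjusted p = 0.0056). NQO1 is also counted among the NRF2 targets, and UGT1A6 shares exons with other UGT1A genes. BIRC3, an inhibitor of apoptosis, averaged 8.04 ± 0.96 CPM at the high dose and 5.57 ± 0.38 CPM at the low dose (log2 change 0.53), as the 1 rise among 14 NF-kappaB and chemokine genes. Of 22 lysosome and autophagy genes CTSL and SQSTM1 rose by 0.46 and 0.20 and UVRAG, of 328 kb, changed by -0.26. CTSL lost the call under 7 of 29 alternatives, in DESeq2 and without any 1 high-dose or low-dose library. Of 24 DNA replication genes CCNE2 and CDC6 rose by 0.30 and 0.19, and POLA1, of 303 kb, changed by -0.26. ABCG2 rose by 0.16 and ABCC1 changed by -0.26 among 13 genes of drug metabolism and efflux, beside the rise of ABCC2. ABCG2 lost the call under 14 of 29 alternatives, each of which left out 1 library. Outside the lists, STON2, ITGB7 and CCN2 completed the 12 largest rises, with 0.56, 0.55 and 0.55.

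Stress and growth programmes had few or 0 calls. In each of the lists of 18 endoplasmic reticulum chaperones, 15 heat shock genes, 24 mitosis genes, 15 p53 targets, 20 hypoxia and glycolysis genes, 13 mitochondrial mRNAs, 18 respiratory chain genes, 16 ribosome biogenesis genes, 13 genes of fatty acid oxidation, 14 enterocyte genes and 5 metallothionein and zinc export genes, 0 members passed in edgeR's test. Over these 11 lists, which hold 170 different tested genes, 8 were higher and 21 lower at an unadjusted p below 0.05 in edgeR. Of all 15490 tested genes 1054 were higher and 1434 lower at that p. DESeq2 called 1 of the 170 higher and 2 lower, and of all tested genes 154 higher and 630 lower. Of 23 genes linked to ATF4, 1 passed and fell (4.35%), close to the 3.83% of all tested genes that fell. It was DDIT4, an inhibitor of mTOR signalling, which changed by -0.29. With SMAD6 and KLF6 it made up the 3 falls among 13 genes of glucose sensing and mTOR brakes (23.1%). DDIT4, SMAD6 and KLF6 lost the call under 3, 3 and 4 of 29 alternatives. Of the chaperones 16 of 18 estimates were below 0, against 7323 of all 15490 tested genes. Their median was -0.08, and HSPA5 had a log2 change of -0.10 (adjusted p = 0.14, edgeR). Of the 760 genes that passed between high and low dose, 484 also passed between high dose and vehicle with the same sign. Of all tested genes 30.3% passed between high dose and vehicle, in either direction. For 292 of the 760 the low dose passed against vehicle, where 27.9% of all tested genes did. In 228 of the 292 the sign was opposite to that between high and low dose, as in the ferritins, TUBA1B, TUBB and TUBB4B. The low-dose libraries enter these comparisons with opposite signs, and the high-dose libraries enter theirs with the same sign. Selection for a difference between high and low dose therefore favours such signs, and the counts of 484 and 228 are partly built in.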

How the data were processed

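Directional mRNA libraries of HT29 cells (1 µg total RNA, RIN above 7, paired reads of 100 bp) are described in the labels' protocols. Per the submitters' processing notes, the authors used RSEM 1.3.3 and STAR 2.7.3a on GRCh38, with Trim Galore 0.6.5 and FastQC 0.11.9. No source here names the annotation they counted on. The deposited table gives raw expected counts for 60675 gene IDs. They were rounded, which moved a library total by at most 0.00022%. Of 270 columns, 210 belong to samples not analysed here.

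Libraries were grouped by extract and dose from the labels. In edgeR 4.0.16 (R 4.3.3), the fit took 21 libraries (9 Aconiti, 9 Bupleuri Radix, 3 vehicle) and the genes reaching 0.5 CPM in 3 or more of them, with TMM scaling and a quasi-likelihood model of 7 group means and 14 residual degrees of freedom. The biological coefficient of variation was 5.11%. All contrasts come from this fit, with p-values adjusted over 15490 genes by Benjamini and Hochberg at a threshold of 0.05. CPM values are means ± SD over 3 libraries. Standard errors are the change over the square root of F. Spans come from GENCODE 29. Depth puts 3 counts, the floor, at 0.082 to 0.15 CPM, which covers counting error only.

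Named genes are, among genes with a mean log2 CPM of at least 1 in the Aconiti libraries, the 12 largest rises and falls, the 4 largest differences from Bupleuri Radix in each direction and the 3 largest changes in each direction between adjacent doses, and up to 3 called members of each list. The members and lists were chosen with earlier results of these data known. On simulated counts of 15335 genes, the comparison of high with low dose recovered 68.7% of genes changed 1.25-fold, 91% changed 1.5-fold and 100% changed 2-fold, with 14 false calls. The changed genes were drawn only from those with a mean level above 1 log2 CPM, so recovery at lower levels was not measured. In all 29 alternatives were run, among them DESeq2 1.42.0. Some results are not reported here.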

Additional observations from a re-analysis of the deposited data

Results flagged for a closer look

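The dose change of the genes below differed between Aconiti and Bupleuri Radix by edgeR's test of the difference, with adjusted p below 0.05, and in a way that set the extracts apart. The doses of the extracts differ, and 41 of 68 named genes passed the same test, so these were taken as the largest differences in each direction and as the genes that changed in opposite directions, both among genes with a mean log2 CPM of at least 1 in the Aconiti libraries or named from a list.

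At that limit on level, the largest differences came from genes that moved with Bupleuri Radix and little or not with Aconiti. SLC5A9 changed by 0.08 with Aconiti and -1.92 with Bupleuri Radix (difference 2.00, Aconiti minus Bupleuri), NOX1, an NADPH oxidase of colon epithelium, by 0.05 and -1.69 (difference 1.73), BCL2L14 by 0.43 and -1.19 (difference 1.62) and CD200 by -0.13 and -1.71 (difference 1.58). In the other direction, DUSP5, a phosphatase of ERK, changed by 0.06 with Aconiti and 1.83 with Bupleuri Radix (difference -1.77), CHAC1, which breaks down glutathione, by -0.35 and 1.35 (difference -1.70) and PKIB by -0.27 and 1.34 (difference -1.61). Of these genes only PKIB passed between high and low dose of Aconiti (adjusted p = 0.042, edgeR). Below the limit a larger difference was seen in GRIP1, with log2 changes of -1.71 with Aconiti (adjusted p = 0.0038, edgeR) and 0.69 with Bupleuri Radix, which did not pass (difference -2.40, adjusted p = 0.00066, edgeR).

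Further genes passed with both extracts and with opposite signs. CCN2 changed by 0.55 with Aconiti and -0.52 with Bupleuri Radix (difference 1.07). The others fell with Aconiti and rose with Bupleuri Radix. DDIT4 changed by -0.29 and 0.70 (difference -0.99), FGF19 by -0.33 and 0.49 (difference -0.83) and KLF6 by -0.17 and 0.44 (difference -0.61). UVRAG changed by -0.26 and 0.33 (difference -0.59), EREG by -0.20 and 0.38 (difference -0.58) and ABCC1 by -0.26 and 0.18 (difference -0.44), each with the Aconiti value first.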

How the results depend on the processing

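The tubulin and long-gene counts stayed within 1.5 times under all 29 alternatives (7 to 9 tubulins higher, 56 to 68 genes over 500 kb lower), and the NRF2 count under all but the fit to 60 libraries (11 higher, otherwise 12 to 18). Of 68 named genes 37 stayed past the threshold throughout, 16 lost it under 1 to 3 alternatives, 15 under more, and 0 changed sign. The 15 were TUBGCP5 and ABCG2 (14 alternatives each), CDH1 (13), TJP1 (10), AGR2 (9), CD44 and SPRED2 (8), CTSL (7), DUSP6 (6), STON2 (5), and CCN2, ABCC2, CCNE2, OAS2 and KLF6 (4). Counts of calls moved more. For high against low dose (760) the fit to 60 libraries gave 432 and the 6 libraries alone 1318, leaving out 1 library 423 to 1199. For the gene lists (61 calls) these gave 33 and 94, and 38 to 88. High against medium dose (476) gave 283 with 60 libraries, 752 with the 9 Aconiti libraries and 227 to 833 with 1 library left out, lowest without medium replicate 2 and highest without vehicle replicate 1. Medium against low dose (3) gave 62 with no filter on low counts, 0 with 60 libraries, 6 with the 9 Aconiti libraries and 0 to 4 with 1 library left out. With 60 libraries, high dose against vehicle gave 2754 (main 4697, 3427 to 5255 with 1 library left out), low dose against vehicle 2281 (main 4326, 2626 to 5120, lowest without vehicle replicate 1) and the difference from Bupleuri Radix 1358 (main 2316, 1825 to 3040). The cause was not tested. The share of calls that were higher was 21.8%, and 16.1% to 30% under the alternatives.

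Same-numbered libraries deviated together little if at all between high and low dose (correlations 0.03, 0 and 0.06). For each high-dose library this was the highest or tied highest value, but low-dose replicate 2 correlated best with high-dose replicate 1 (0.02). Between medium and the other doses each library correlated best with its own number, a hint from the data only. A replicate block added to the fit of 21 libraries gave 832 calls for high against low dose, 530 for high against medium and 4 for medium against low, within 1.5 times of the counts without it. With the block and fewer libraries, high against low dose gave 1430 calls (set 13) or 1415 (9 Aconiti libraries, chosen after seeing the data, which gave 1080 with no block), the gene lists 103 or 100, high against medium dose 1060 or 1051, and medium against low dose 5 or 7.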
